A study of Mus musculus with 8 samples.

Results

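Of the 27735 cell barcodes with at least 200 detected genes in the 2 deposited matrices of mouse small-intestinal crypt cells, 5982 had more than 30% of their UMIs (molecular tags that count captured transcripts) from the 13 measured genes whose symbols start with mt-, which are encoded by the mitochondrial genome. They were chosen by that measured share alone, so the share itself is a description and not a result. There were 1898 of 14993 such barcodes in the matrix labelled WT (12.7%, exact Clopper-Pearson 95% interval 12.1% to 13.2%) and 4084 of 12742 in the matrix labelled KO (32.1%, 31.2% to 32.9%). The 13095 WT and 8658 KO barcodes at or under the limit were the ones they were set beside.

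The series asked what loss of ieCtnnb1, an intestinal enhancer lying upstream of Ctnnb1 (the gene of β-catenin, the effector of canonical Wnt signaling), does to the cells of the crypt. KO crypts came from adult mice homozygous for deletion of the enhancer (Ctnnb1 Δi.enh), and WT crypts from adult H11 i.enh mice, which have an intact Ctnnb1 locus but carry an ieCtnnb1-driven LacZ-iCre reporter at the H11 locus and so are not plain wild type. Crypts were released with EDTA and EpCAM+ DAPI- cells were sorted before droplet capture, where DAPI marks cells with broken membranes at the time of the sort. GEO lists 4 samples per genotype, but the values came as 1 pooled matrix per genotype in which no barcode could be assigned to a sample, so no test was possible, genotype and library cannot be told apart, and all 95% intervals given here cover counting error only.

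A cell whose plasma membrane has torn can lose cytoplasmic RNA while mitochondria stay behind, and for this reason a high mitochondrial share is widely used as a mark of damaged or dying cells and such barcodes are usually discarded. Cells rich in mitochondria, such as absorptive enterocytes, can also reach a high share. The crypt holds Lgr5-expressing columnar base cells (CBCs, the stem cells), cycling progenitors, absorptive enterocytes, and the secretory lineages: Paneth cells, which release lysozyme and α-defensins, mucus-forming goblet cells, hormone-making enteroendocrine cells and chemosensory tuft cells. The question here is which of these lineages' transcripts the barcodes above the limit held.

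The barcodes over the limit were shallow, and they were poor in other transcripts more than rich in mitochondrial ones. Their median non-mitochondrial UMI count was 723 in WT and 646 in KO, against 6106 and 7842 at or under the limit. Their median number of mitochondrial UMIs was 597 in WT and 730 in KO, against 334 and 556.5 at or under the limit. They had a median of 319 genes in WT and 331 in KO, and 1723 and 2096.5 at or under it. The median mitochondrial share was 42.3% in WT, with a highest value of 70.2%, and 49.0% in KO, with a highest value of 79.2%. All barcodes over the limit together held 1.23% of the non-mitochondrial UMIs of the WT matrix and 2.88% of those of the KO matrix, but 16.8% and 34.5% of the mitochondrial UMIs.

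No gap separated the 2 sides. In WT, 345 barcodes lay between 25% and 30%, with a median of 896 non-mitochondrial UMIs, and 337 lay between 30% and 35%, with a median of 941. In KO the same bins held 558 and 524 barcodes, with medians of 794 and 771. The number of non-mitochondrial UMIs had already dropped to this level below the limit, since barcodes between 10% and 20% had a median of 3112 in WT and 3837 in KO. Of 57 barcode sequences that occurred in both matrices, 7 were over the limit in WT, 18 in KO and 0 in both. Among the mitochondrial genes, mt-Atp6, a subunit of ATP synthase, gave 22.7% of the mitochondrial UMIs over the limit in WT and 21.4% at or under it, and mt-Co3, a subunit of cytochrome c oxidase, gave 21.8% and 18.9%.

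**Figure D1:**
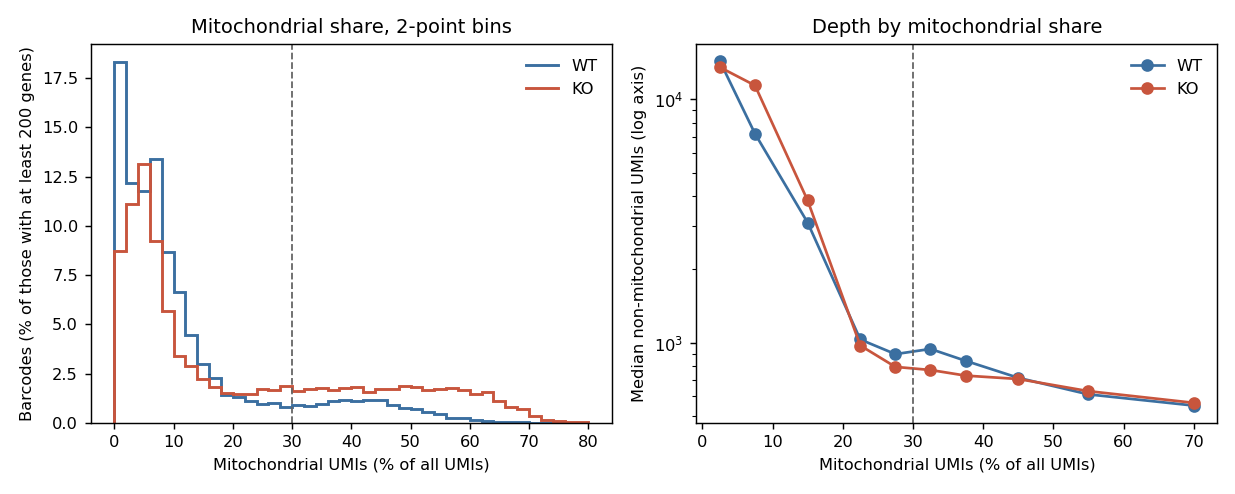
Left, share of all barcodes with at least 200 genes (y axis, %) in 2-point bins of the mitochondrial share (x axis, %); right, median non-mitochondrial UMIs per barcode (y axis, log scale) by mitochondrial share. Blue is WT, red is KO and the dashed line is the limit of 30%; KO barcodes extend in a flat shoulder to over 60%, and in both matrices the median depth falls to about its final level before the limit is reached.

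To read single barcodes at 1 common depth, each was thinned at random to 200 non-mitochondrial UMIs, which left out no barcode. At this depth Paneth transcripts were a large share of nearly every barcode over the limit. The Paneth list (lysozyme, α-defensins and other genes of Paneth granules, 22 genes found) took at least 10% of the thinned UMIs in 99.8% of the WT and 98.1% of the KO barcodes over the limit, against 60.2% and 54.2% at or under it. Before thinning the share over the limit was 99.9% and 98.3%. Shallow barcodes at or under the limit, with 200 to 1000 non-mitochondrial UMIs, nearly all passed the cut as well. Of these, 4 of 1779 in WT and 1 of 2454 in KO lay below 5%, and 7 and 3 between 5% and 10%. The cut thus did not set the barcodes over the limit apart from shallow ones at or under it. This cut did not mark Paneth cells. Of barcodes at or under the limit with at least 5 tuft genes, a cell type that should lack defensins, 49.5% of 194 in WT and 22.5% of 120 in KO passed it, at median depths of 5781.5 and 12526 non-mitochondrial UMIs. The WT and KO shares over the limit were above those of the tuft barcodes.

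The Paneth share did differ in its spread. Over the limit it had a median of 35% in WT, with 18.5% and 50% as the 5th and 95th percentiles, and a median of 33.5% in KO, with 13.5% and 47%. At or under the limit the same percentiles were 3.5% and 79.5% in WT and 1.5% and 74% in KO. Barcodes poor in Paneth transcripts and barcodes made mostly of them were both present there, with a further peak between them. In KO, 9.45% of these barcodes had a share of 35% to 40%, and 3.07% a share of 75% to 80%. In WT, 4.64% had a share of 40% to 45%, and 8.20% a share of 75% to 80%. The middle peak lay in the range of the barcodes over the limit. The variance of the Paneth UMIs over their mean was 5.11 in WT and 6.37 in KO over the limit, and 48.9 and 44.6 at or under it. Shallow barcodes at or under the limit, those with 200 to 1000 non-mitochondrial UMIs, also had a narrow form. Their ratios were 3.73 and 2.92 and their medians 39% and 33.5%. Their 5th and 95th percentiles were 25.5% and 52% in WT and 21.5% and 44% in KO. The barcodes over the limit thus reached lower Paneth shares than these.

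**Figure D2:**
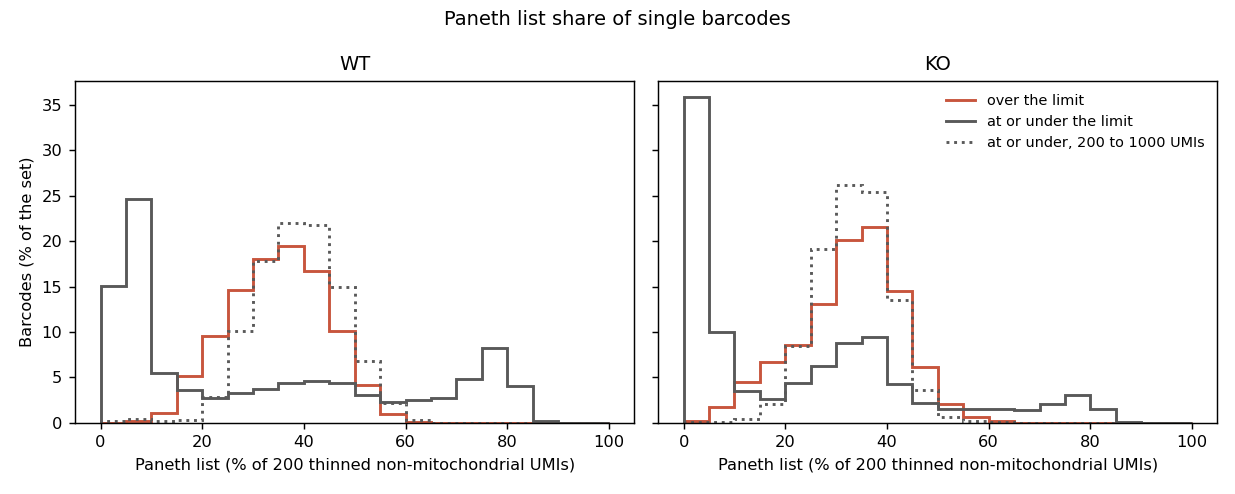
Distribution of the Paneth list's share (x axis, % of 200 thinned non-mitochondrial UMIs, 5-point bins) over single barcodes (y axis, % of the set) in WT and KO. Red is over the limit, solid grey at or under it, and dotted grey those at or under it with 200 to 1000 non-mitochondrial UMIs; the red and dotted curves are single peaks with medians of 33.5% to 39%, where the solid curve is highest under 10% and reaches beyond 75%.

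Transcripts of lineages that are normally apart occurred together in these barcodes. At 200 UMIs, 76.1% of WT and 83.4% of KO barcodes over the limit held at least 1 UMI each from the Paneth, goblet and enterocyte lists. The corresponding shares were 33.2% and 49.6% at or under the limit, and 57.7% and 84.1% for its barcodes with 200 to 1000 non-mitochondrial UMIs. Few barcodes over the limit were dominated by goblet or enterocyte transcripts. The goblet list reached 10% of the thinned UMIs in 0.369% of WT and 0.367% of KO barcodes over the limit, against 10.5% and 5.08% at or under it. The enterocyte list reached 10% in 0.0527% of WT barcodes, that is in 1 barcode, and in 2.08% of KO barcodes, against 1.85% and 8.73% at or under the limit. Before thinning the enterocyte shares over the limit were 0% and 1.20% and the goblet shares 0.421% and 0.416%, and in the tuft barcodes the thinned enterocyte shares were 0% and 0.833%. The thinned goblet shares in the tuft barcodes were 2.58% and 0.833%, above those over the limit. They rested on 5 of 194 WT and 1 of 120 KO barcodes, which were also deeper. They cannot set a background level for the barcodes over the limit.

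Gene by gene, shares of the summed non-mitochondrial UMIs, in CPM (UMIs per 1e6 non-mitochondrial UMIs), were then compared over and at or under the limit within each matrix. Among genes with at least 200 UMIs, 2507 of 10348 in WT (24.2%) were at least 2-fold higher over the limit and 373 (3.60%) at least 2-fold lower, and in KO 2035 of 10032 (20.3%) were higher and 93 (0.927%) lower. With the added demand that the 95% interval lay on the same side of 0, the shares were 23.5% higher and 1.66% lower in WT, and 20.3% higher and 0.618% lower in KO. The 95% interval lay above 0 for 40.0% of these genes in WT and 42.8% in KO, and below 0 for 9.57% and 14.5%. The median gene stood 0.39 (WT) and 0.30 (KO) log2 units higher over the limit. The values over all barcodes that follow are to be read against this shift. When every barcode counted alike in place of by its UMIs, the median gene was at -0.18 and -0.098. Because the 2 sides differed in depth, lineages are also given between barcodes of 200 to 1000 non-mitochondrial UMIs on both sides, called the common depth. There the median gene stood at -0.016 in WT and 0.0055 in KO.

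**Figure D3:**
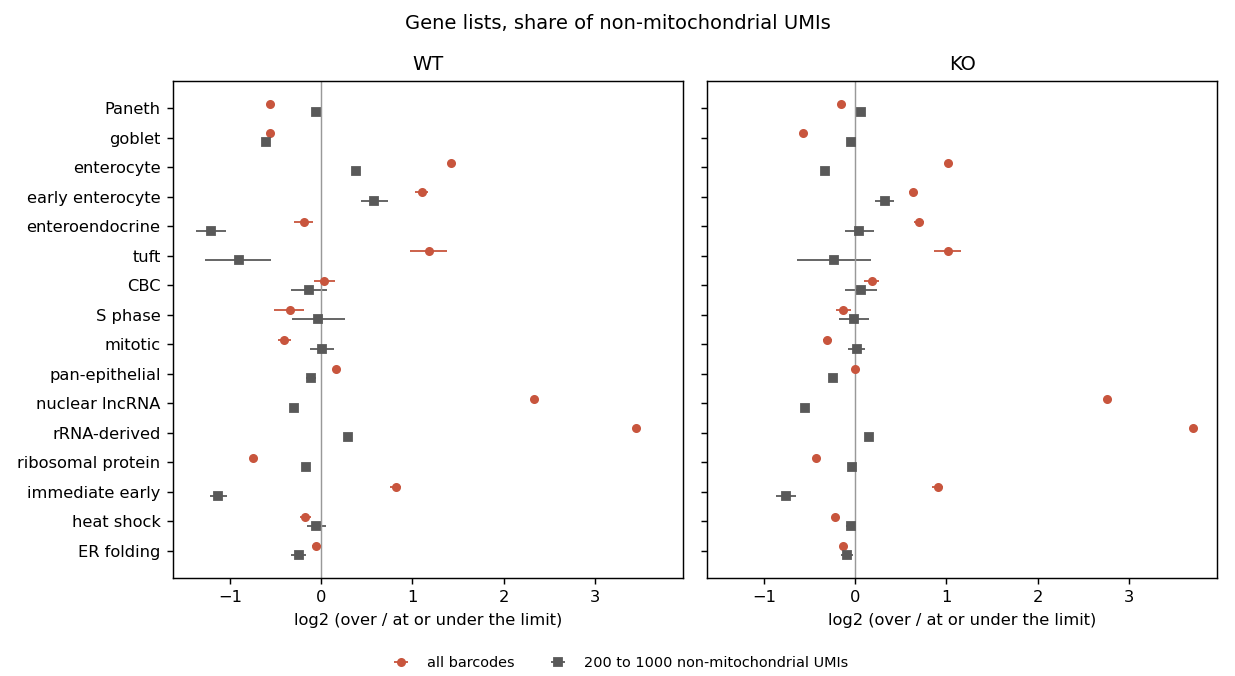
Log2 ratio of each gene list's share of non-mitochondrial UMIs, over against at or under the limit (x axis), in WT and KO, for all barcodes (red circles) and for barcodes with 200 to 1000 non-mitochondrial UMIs (grey squares). Bars are 95% counting intervals; nuclear lncRNA and rRNA-derived RNA stand above 2 for all barcodes and between -0.56 and 0.29 at the common depth.

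Paneth transcripts were the largest lineage component over the limit. They made up 320926 CPM in WT and 288470 CPM in KO, against 472923 and 321895 at or under the limit, log2 differences of -0.56 and -0.16. The interval lay below 0 for 20 of 22 Paneth genes in WT and 18 of 22 in KO, beside 9.57% and 14.5% of all genes. Lyz1, the Paneth cell lysozyme, stood at 23013 CPM over and 29922 CPM at or under the limit in WT, and at 19491 and 20070 CPM in KO. Defa24, an α-defensin, stood at 91805 against 136314 CPM in WT and at 81849 against 88242 CPM in KO. Members of the defensin family are nearly identical and reads between them may have been split or dropped in counting, so single defensins are uncertain. Clps, which encodes colipase, had the lowest ratio of the list in WT, at -1.35 (interval -1.42 to -1.27), and -0.54 in KO. At the common depth the whole list differed by -0.057 in WT and 0.061 in KO. When every barcode was given equal weight in place of its UMIs, so that deep Paneth barcodes at or under the limit counted no more than others, the direction turned, to 0.14 in WT and 0.49 in KO.

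The goblet list, genes of mucus and its secretion, was lower over the limit in both matrices, at 19049 against 28074 CPM in WT and 14228 against 21229 CPM in KO, log2 differences of -0.56 and -0.58. The interval lay below 0 for 11 of 15 genes in WT and 13 of 15 in KO, beside 9.57% and 14.5% of all genes. Zg16, a lectin-like protein of secretory granules, stood at 3255 against 5289 CPM in WT and at 2718 against 5809 CPM in KO. Tff3, a trefoil peptide released with mucus, was lower by similar amounts, -0.64 and -0.61. Muc2, the gel-forming mucin itself, was at 1795 against 1781 CPM in WT, and at 697 against 822 CPM in KO. At the common depth the goblet difference stayed in WT, at -0.61 (-0.63 to -0.59), with Fcgbp, an Fc-binding mucus protein, at -1.68 and Muc2 at -1.09, and was -0.043 in KO. Barcodes with at least 5% goblet UMIs numbered 17 over the limit in WT and 36 in KO, or 0.896% and 0.881%, against 16.1% and 9.06% at or under it.

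The enterocyte list took a higher share over the limit in both matrices. It stood at 13804 against 5158 CPM in WT and at 26473 against 13108 CPM in KO, log2 differences of 1.42 (1.40 to 1.44) and 1.01 (1.004 to 1.02). The interval lay above 0 for 21 of the 22 genes with enough UMIs in WT and 21 of 23 in KO. Beside these, it did so for 40.0% and 42.8% of all genes. Lct, which encodes lactase of the brush border, was at 184 against 21.4 CPM in WT and 246 against 23.9 CPM in KO. Slc5a1, the sodium-glucose cotransporter, was at 513 against 76.6 CPM in WT and 502 against 97.8 CPM in KO. Sis, sucrase-isomaltase, Apob, the core protein of chylomicrons, and Mttp, which loads lipid onto it, differed by 2.15, 2.69 and 2.22 in WT and by 1.05, 2.28 and 1.82 in KO. The small cytosolic carriers differed less: Fabp1 and Fabp2, fatty acid-binding proteins, by 0.38 and 0.59 in WT and by 0.77 and 0.60 in KO, and Fabp6, the bile acid-binding protein of the ileum, by 0.21 and -0.18. Vil1, the actin bundler of the brush border, which was counted among pan-epithelial genes, was at 523 against 160 CPM in WT and 537 against 156 CPM in KO.

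At the common depth the enterocyte genes split. The list differed by 0.38 (0.35 to 0.42) in WT and by -0.34 (-0.35 to -0.32) in KO, so its direction was not the same in the 2 matrices, and with equal weight for every barcode of any depth it was 0.29 in WT and -0.22 in KO. Lct remained higher over the limit in both, at 169 against 46.0 CPM in WT and 175 against 47.4 CPM in KO, log2 differences of 1.88 (1.45 to 2.33) and 1.88 (1.53 to 2.26). Apoa4, an apolipoprotein of lipid absorption, was higher by 1.57 and 0.72, and Mttp by 1.55 and 0.89. Fabp6 was lower over the limit in both, at 546 against 2785 CPM in WT and 1951 against 6187 CPM in KO, log2 differences of -2.35 and -1.66. Slc10a2, the ileal bile acid transporter, had the same sign, with 2 against 16 UMIs in WT and 21 against 80 in KO. Apoa1 was higher by 0.93 in WT and lower in KO, at -0.52.

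**Figure D4:**
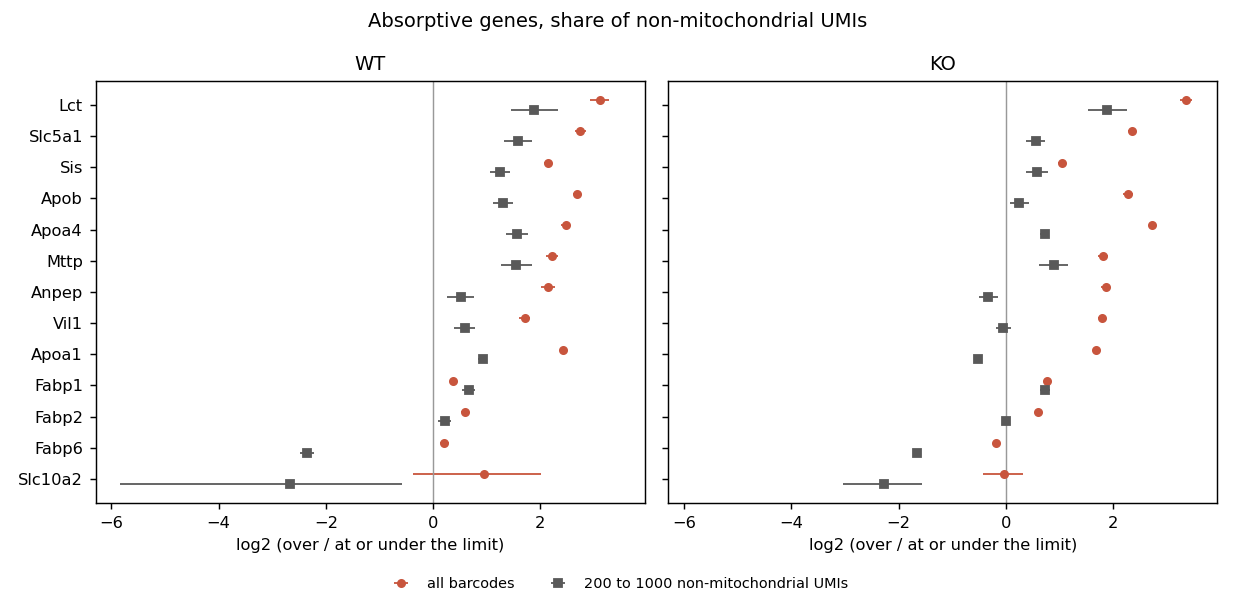
Log2 ratio of the share of non-mitochondrial UMIs, over against at or under the limit (x axis), for 13 absorptive genes in WT and KO, for all barcodes (red circles) and for barcodes with 200 to 1000 non-mitochondrial UMIs (grey squares), with 95% counting intervals. Lct, Apoa4 and Mttp lie above 0 in all 4 series, and Fabp6 and Slc10a2 lie below 0 at the common depth.

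KO barcodes over the limit also differed among themselves in enterocyte transcripts. In KO, 416 of 4084 (10.2%, 9.27% to 11.2%) had at least 5% of their non-mitochondrial UMIs from the enterocyte list, and these held 46.8% of the list's UMIs over the limit. In WT 27 of 1898 (1.42%, 0.940% to 2.06%) did, holding 10.1%. At or under the limit the shares of such barcodes were 16.4% in KO and 6.38% in WT. The early enterocyte list differed by 1.10 in WT and 0.63 in KO, which rested on few genes, since Apol10a differed by 2.03 and 1.92 and the mitochondrial creatine kinase Ckmt1 by 1.12 and 0.78 while the median of its 7 genes was 0.41 and -0.20. The early enterocyte list stayed higher at the common depth, at 0.58 and 0.32.

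Tuft transcripts came from few barcodes. An enteroendocrine UMI was found in 25.8% of WT and 19.4% of KO barcodes over the limit. Yet the 1% of barcodes with the most enteroendocrine UMIs held 29.5% of them in WT and 69.4% in KO. The enteroendocrine list was at 471 against 538 CPM in WT, a log2 difference of -0.19 (-0.30 to -0.09), and at 824 against 507 CPM in KO, a difference of 0.70 (0.64 to 0.76). The KO value rested on 1 barcode. It held 1160 of 1283 UMIs of Gip, the hormone of K cells, or 90.4%, and it had 4925 non-mitochondrial UMIs, 1717 genes and a mitochondrial share of 32.4%. Without it Gip in KO was at 37.4 CPM over the limit against 114 CPM at or under it, and the enteroendocrine list differed by -0.15 (-0.23 to -0.08), the same sign as in WT. The median of its 15 genes in KO was -0.16. Among the other genes, the granule protein Chgb stood at 147 against 180 CPM in WT and 165 against 89.6 CPM in KO. In KO, 76.8% of the Chgb UMIs over the limit lay in the 1% of barcodes with the most, 119 of them in 1 barcode. In WT that share was 49.8%. The tuft list was at 131 against 57.8 CPM in WT and 114 against 56.4 CPM in KO, from 205 and 375 UMIs over the limit, and only 63 WT and 150 KO barcodes had a tuft UMI. The 1% of barcodes with the most tuft UMIs held 78.5% of them in WT and 70.9% in KO. Trpm5, the cation channel of taste transduction, had 13 and 27 UMIs over the limit. The tuft and enteroendocrine lists were lower over the limit in WT at the common depth, at -0.91 and -1.21, and their intervals held 0 in KO.

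The mitotic and S-phase lists were lower over the limit in both matrices, and the stem cell (CBC) list was not. Even so, the stem cell list stood below the median gene, which was 0.39 (WT) and 0.30 (KO) higher. With equal weight for every barcode the stem cell list was at -0.41 and -0.15, beside a median gene of -0.18 and -0.098. The CBC list was at 398 against 388 CPM in WT, an interval that held 0, and at 358 against 317 CPM in KO, a difference of 0.18. Lgr5 had 24 UMIs over the limit in WT and 46 in KO, 15.4 against 10.7 CPM and 14.0 against 9.96 CPM. Olfm4, another CBC gene, had intervals that held 0 in both. The mitotic list was lower over the limit, at -0.40 in WT and -0.31 in KO, with intervals below 0 for 8 and 7 of 13 genes. The S-phase list was at -0.35 and -0.13, with intervals below 0 for 3 of 12 genes in each, beside 9.57% and 14.5% of all genes. Mki67 was at 129 against 167 CPM in WT and at 73.8 against 60.4 CPM in KO. Between barcodes of like depth the intervals of the CBC, S-phase and mitotic lists held 0 in both matrices. Wnt pathway genes as a list differed by 0.35 and 0.16, and Ctnnb1, next to which the deleted enhancer lies, was at 171 against 124 CPM in WT and 115 against 96.7 CPM in KO. Both had the opposite sign at the common depth, where the Wnt list was at -0.21 (-0.38 to -0.043) and -0.16 (-0.31 to -0.0077) and Ctnnb1 at -0.15 in WT, with an interval that held 0, and -0.34 (-0.66 to -0.029) in KO. Of 14 Wnt genes with enough UMIs, the interval lay above 0 for 6 in WT and 7 in KO, beside 40.0% and 42.8% of all genes.

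Epcam, the surface protein used in the sort, was present on both sides, at 910 against 884 CPM in WT and 994 against 1128 CPM in KO and in 43.4% and 44.7% of the barcodes over the limit. RNA of other cell types was near 0. The T and NK lymphocyte list had 9 UMIs over the limit in WT and 57 in KO, of which Ccl5 had 2 and 30 and Gzma 2 and 15, and Cd2 had 0 in both. The B and plasma cell list had 11 and 54 UMIs, of which Jchain, the joining chain of secreted immunoglobulins, had 8 and 46. The myeloid list had 12 and 37 UMIs, the stromal list 1 and 3, the endothelial list 3 and 2, and the erythroid list 0 and 0. Both lymphocyte lists were a higher share over the limit than at or under it, 17.3 against 1.94 CPM for T and NK lymphocytes in KO. At the common depth the T and NK list in KO was at 14.9 against 41.9 CPM.

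RNA that is kept in the nucleus or derived from rRNA was higher over the limit when all barcodes were compared. The nuclear long noncoding RNA list was at 19214 against 3803 CPM in WT and 18560 against 2729 CPM in KO, differences of 2.34 and 2.77. Malat1, which stays in nuclear speckles, was at 17161 against 3177 CPM in WT and 17191 against 2292 CPM in KO. Neat1, the scaffold of paraspeckles, differed by 2.12 and 2.78, and Xist, the RNA that coats the inactive X chromosome, by 1.54 and 1.22. The rRNA-derived list, 3 annotated loci that collect ribosomal RNA reads, was at 114401 against 10405 CPM in WT and 15141 against 1162 CPM in KO. Nearly all of it was Gm42418 (chr17:39846958-39848788 in GRCm38, an annotated long intergenic RNA), with 106038 CPM over the limit in WT and 14662 CPM in KO. AY036118, a second such locus (chr17:39847113-39848035), lies inside it on the other strand, and the strand rule of the counting is not given, so their reads cannot be told apart. At the common depth the differences were -0.30 and -0.56 for nuclear RNA and 0.29 and 0.15 for rRNA-derived RNA.

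Transcripts of ribosomal proteins were lower over the limit, at 59893 against 100862 CPM in WT and 121303 against 164205 CPM in KO. Intervals lay below 0 for 77 of 78 genes in WT and 76 of 78 in KO, beside 9.57% and 14.5% of all genes. Nuclear genes of the respiratory chain, whose products act in mitochondria beside the mt- genes, differed by -0.15 and -0.12 as a list. Intervals lay above 0 for 18 of its 76 genes in each matrix, beside 40.0% and 42.8% of all genes. They lay below 0 for 38 in WT and 47 in KO, beside 9.57% and 14.5% of all genes. At the common depth this list had the other sign, at 0.071 and 0.065. Immediate early genes, which are induced within minutes of stress, were higher, at 1470 against 836 CPM in WT and 699 against 374 CPM in KO, Jun by 0.94 and 1.29 and Fos by 0.81 and 0.92. The sign was the opposite at the common depth, where the list was at -1.13 in WT and -0.76 in KO. Ddit3, a transcription factor of the unfolded protein response, was at 34.6 against 10.4 CPM in WT and 41.9 against 12.5 CPM in KO, but at the common depth it differed by -0.41 and 0.12 with intervals that held 0. The list of ER folding genes differed by -0.053 and -0.14. The heat shock list differed by -0.18 and -0.23, with a median over its genes of 0.12 in WT and -0.21 in KO, and the list of p53 targets and apoptosis genes differed by 0.26 and 0.18, and by -0.073 and -0.070 at the common depth with intervals that held 0.

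Single genes were then ranked across both matrices. Among 9873 genes with at least 200 UMIs in each matrix, 3308 had an interval above 0 and 777 an interval below 0 in both, and 1550 were at least 2-fold higher and 9 at least 2-fold lower in both. Ranked by the interval bound nearest 0, the 15 highest were Nlrp9b, Lars2, Gm42418, Adamtsl5, Slc6a19, AY036118, Xdh, Ace, Btnl2, Synpo, Ggt1, Myo15b, Treh, Chd3 and Lct. Nlrp9b, an intestinal NOD-like receptor gene (chr7:19991465-20073306, plus strand, GRCm38), was at 87.7 against 2.43 CPM in WT and 79.2 against 4.11 CPM in KO, from 137 and 261 UMIs over the limit. Several of the others act at the enterocyte brush border: Slc6a19, a neutral amino acid transporter, differed by 3.57 and 3.22, the trehalase gene Treh by 3.77 and 3.17, the γ-glutamyl transferase gene Ggt1 by 3.84 and 3.08, and the peptidase gene Ace by 3.26 and 3.35. Lars2, mitochondrial leucyl-tRNA synthetase, was at 2284 against 164 CPM in WT and 330 against 26.3 CPM in KO.

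The 15 lowest were Agr2, Hist1h2ap, Klk1, Rps2, Ppia, Rps4x, Rplp0, Rps3, Cck, Emc4, Rpl7, Rpl10, Rep15, Zg16 and Rpl9. Agr2, a disulfide isomerase needed for mucin folding, was at 1082 against 2482 CPM in WT and 1437 against 2900 CPM in KO. Hist1h2ap, a replication-dependent histone, was at 49.9 against 113 CPM and 32.8 against 82.8 CPM. At like depth 27 of the 30 ranked genes in WT and 30 of 30 in KO lay closer to 0. Agr2 stood at -0.41 in WT and -0.054 in KO and Nlrp9b at 0.88 and 0.041, while Ace kept 1.86 and 1.15. In that comparison 41 of 938 genes in WT (4.37%) and 5 of 1769 in KO (0.283%) were at least 2-fold higher over the limit, and 18 (1.92%) and 13 (0.735%) at least 2-fold lower. The minimum of 200 UMIs was applied within the band, so these were fewer and more abundant genes than the 10348 and 10032 above. The shares of the 2 comparisons are therefore of unlike gene sets. The 2 sides were close in depth there, with medians of 669 against 724 non-mitochondrial UMIs in WT and 601 against 640 in KO, and far apart in mitochondrial share, with medians of 44.1% against 8.28% and 51.1% against 6.86%.

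The ratio also followed transcript length. By quartile of summed exon length, the median log2 difference was -0.11, 0.30, 0.54 and 0.77 in WT and -0.13, 0.22, 0.48 and 0.67 in KO, from the shortest to the longest genes. Lengths were found for 99.9% of the genes in either matrix. Ribosomal proteins and small secreted peptides have short transcripts, whereas Lct, Sis, Apob and Malat1 have long ones, and the part of length in the group differences was not tested.

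Composition changed along the mitochondrial share within the barcodes over the limit. The Paneth list went from 270431 CPM at 30% to 35% to 426516 CPM at 60% to 80% in WT, where the last bin held 44 barcodes, and from 246716 to 337104 CPM in KO, where it held 798. The enterocyte list went the other way, from 15956 to 9833 CPM in WT and from 29980 to 19224 CPM in KO. The nuclear RNA list was at 19750 CPM at 30% to 35% and 7354 CPM at 60% to 80% in WT, and at 15814 and 17106 CPM in KO. Depth fell along the same axis, from a median of 941 to 550.5 non-mitochondrial UMIs in WT and from 771 to 565 in KO, so depth and mitochondrial share cannot be told apart along it. Across the limit itself there was no step, the Paneth list being at 261043 CPM between 25% and 30% in WT and at 209780 CPM in KO.

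**Figure D5:**
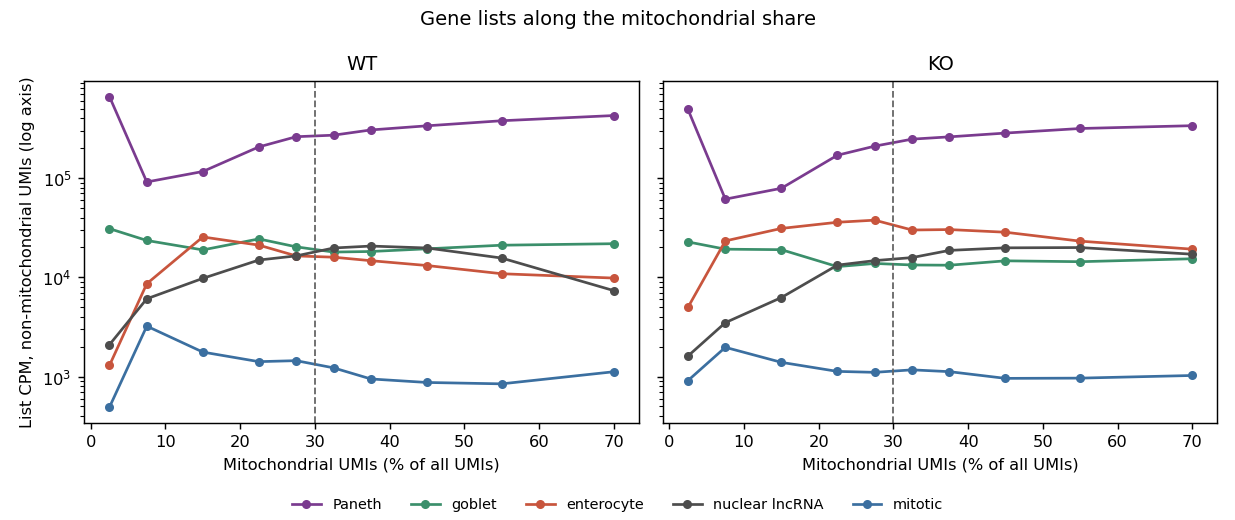
Share of 5 gene lists in the non-mitochondrial UMIs (y axis, CPM, log scale) by bin of mitochondrial share (x axis, %, at bin centres) in WT and KO, with the limit of 30% dashed. Beyond the limit the Paneth line climbs from 270431 to 426516 CPM in WT and the enterocyte line declines from 15956 to 9833 CPM, and no line steps at the limit.

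Between the genotypes, the Paneth, goblet and enterocyte lists differed in the same direction over the limit as at or under it. The enteroendocrine and mitotic values had opposite signs on the 2 sides, but neither contrast was firm. The enteroendocrine one rested on 1 barcode, and the mitotic interval at or under the limit held 0. In KO against WT over the limit, 949 of 9873 genes (9.61%) were at least 2-fold higher and 837 (8.48%) at least 2-fold lower, against 3.66% and 3.27% at or under the limit, and the median gene differed by -0.029. With an interval on the same side of 0 the shares over the limit were 7.46% and 7.09%. The Paneth list was lower in KO over the limit by -0.15 (-0.16 to -0.15) and by -0.56 at or under it. The goblet list was lower by -0.42 and -0.40. The enterocyte list was higher in KO by 0.94 over the limit and by 1.35 at or under it, and the early enterocyte list by 0.20 and 0.67. The CBC list was at -0.15 and -0.30. The enteroendocrine list was at 0.81 and -0.085, the first of which rested on the 1 Gip barcode, without which the KO level was 456 against 471 CPM in WT, and the mitotic list at 0.092 and -0.0049, the second with an interval that held 0. The difference of the 2 differences, with a Wald counting interval, was 0.40 for the Paneth list (0.40 to 0.41), -0.41 for the enterocyte list (-0.43 to -0.38) and -0.018 for the goblet list (-0.039 to 0.0034).

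The 8 genes highest in KO over the limit by the same ranking were Ada, Apol9a, Fabp5, Apoc3, Spink1, Fam151a, Fabp6 and Gip. Ada, adenosine deaminase, was at 133 CPM in KO and 10.9 CPM in WT, from 437 and 17 UMIs. Apoc3, an apolipoprotein of enterocytes, was at 900 against 198 CPM, and Fabp6 at 2594 against 684 CPM. Gip was among them through the 1 barcode described above. The 8 lowest were AY036118, Kcnq1ot1, Gm42418, Lars2, Gm26870, Gm26917, Lnpep and Abcc2. AY036118, an rRNA-derived locus, was at 302 CPM in KO and 7306 CPM in WT, a difference of -4.60 that was -4.40 at or under the limit. Kcnq1ot1 is antisense to Kcnq1 and the strand rule of the counting is not given, so its reads cannot be told from those of its partner. Ribosomal protein genes were higher in KO, by 1.02 over the limit and 0.70 at or under it, and rRNA-derived RNA lower, by -2.92 and -3.16. These ribosomal differences had the same sign on both sides of the limit, and genotype and library cannot be told apart in them.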

How the data were processed

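The authors deposited raw counts of UMIs per gene and barcode, 1 matrix each for WT and KO, groups that follow the labels. The matrix headers name Cell Ranger 4.0.0, the submitters' processing notes Cell Ranger 2.1.1 and build mm10. Barcodes were kept at 200 genes or more and split at 30% mitochondrial UMIs, a limit taken from the study. Mitochondrial UMIs were left out of the denominator because they chose the barcodes. Summed counts were compared as log2 ratios with exact conditional binomial intervals, CPM with Poisson intervals and shares with Clopper-Pearson intervals (SciPy 1.17.1). Genes with at least 200 UMIs in a matrix were read singly. Named genes were those of 25 lists plus, by the interval bound nearest 0, the 15 highest and lowest in both matrices, and 8 for KO against WT. Differences between 2 log2 ratios had Wald intervals, and thinning used seed 1. Doublets were not called, since the barcodes over the limit were shallow. Alternatives were limits of 20% and 50%, a minimum of 500 genes, equal weight for barcodes, a band of 200 to 1000 non-mitochondrial UMIs, a denominator without abundant genes and a lower gene minimum of 20 UMIs. The members and lists were chosen with earlier results of these data known. The intervals were tested on simulated sums drawn as independent counts per gene. That leaves out the clustering of UMIs in barcodes, so it cannot show how well the intervals cover these data. No p-values are given, as each genotype had 1 matrix. Of the 27998 gene identifiers, 98.7% were found in GENCODE M21 (GRCm38), used for length and position. Depth was 582 to 4995 total UMIs per WT and 582 to 9394 per KO barcode over the limit.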

Additional observations from a re-analysis of the deposited data

Results flagged for a closer look

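The enteroendocrine list pointed in opposite directions in the 2 matrices: its log2 difference over against at or under the limit was -0.19 in WT and 0.70 in KO. The difference between the matrices was not tested, since each genotype had 1 pooled matrix. It hung on 1 KO barcode with 1160 Gip UMIs and a mitochondrial share of 32.4%; without it the KO value was -0.15.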

How the results depend on the processing

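No paired analysis was possible because the labels' replicate numbers 1 to 4 do not appear in the matrices, which pool the samples of a group; for the same reason no replicate could be left out. Depth mattered most: with barcodes of 200 to 1000 non-mitochondrial UMIs, 17 of the list values and 32 of the gene values changed sign. The goblet, early enterocyte, rRNA-derived and ribosomal protein lists kept their sign in both matrices under all 6 settings that were run for lists. The early enterocyte list was close to 0 in KO with equal weight for each barcode, at 0.026. Apart from the reversed ones, the list values that left their interval numbered, over both matrices, 33 with a limit of 20%, 30 with a limit of 50%, 31 with a minimum of 500 genes, 25 with equal weight for each barcode, 22 with barcodes of 200 to 1000 non-mitochondrial UMIs, 18 with a denominator that left out each gene over 1%. Of these, values are given below for the CBC, Paneth, goblet and enterocyte lists alone, and each list or gene whose interval had not held 0 and whose sign turned is given. The share of barcodes over the limit in WT was 17.8% with a limit of 20%, 2.5% with a limit of 50%, 3.66% with a minimum of 500 genes. The share of barcodes over the limit in KO was 40.2% with a limit of 20%, 14.9% with a limit of 50%, 11.8% with a minimum of 500 genes. The count of genes at least 2-fold lower in WT was 110 with a limit of 20%, 2063 with a limit of 50%, 1180 with equal weight for each barcode, 18 with barcodes of 200 to 1000 non-mitochondrial UMIs, 1378 with genes of at least 20 UMIs. The count of genes at least 2-fold higher in WT was 4405 with a minimum of 500 genes, 658 with equal weight for each barcode, 41 with barcodes of 200 to 1000 non-mitochondrial UMIs. The count of genes at least 2-fold lower in KO was 43 with a limit of 20%, 503 with a limit of 50%, 227 with a minimum of 500 genes, 310 with equal weight for each barcode, 13 with barcodes of 200 to 1000 non-mitochondrial UMIs, 597 with genes of at least 20 UMIs. The count of genes at least 2-fold higher in KO was 3782 with a minimum of 500 genes, 278 with equal weight for each barcode, 5 with barcodes of 200 to 1000 non-mitochondrial UMIs. In that band the minimum of 200 UMIs per gene left only 938 genes in WT and 1769 in KO. With a limit of 20%, in WT the values of these 4 lists beyond their interval were CBC 0.34, Paneth -0.75, goblet -0.45, enterocyte 1.67. WT lists of changed sign were enteroendocrine 0.74, nuclear respiratory chain 0.12, heat shock 0.046, ER folding 0.11. WT genes of changed sign were Chgb 1.35, Clca1 0.023, Fcgbp 0.22, Mki67 0.14. In KO the values of these 4 lists beyond their interval were CBC 0.36, Paneth -0.34, goblet -0.62, enterocyte 1.23. KO lists of changed sign were ER folding 0.0011. KO genes of changed sign were Cck 1.92, Epcam 0.049, Fabp6 0.37, Fcgbp 0.11. KO against WT, the Paneth list was -0.15 and the enterocyte list was 0.90. With a limit of 50%, in WT the values of these 4 lists beyond their interval were Paneth -0.30, goblet -0.40, enterocyte 1.03. WT lists of changed sign were tuft -0.23, pan-epithelial -0.14, p53 and apoptosis -0.081. WT genes of changed sign were Fabp6 -0.52, Jun -0.069. In KO the values of these 4 lists beyond their interval were goblet -0.52, enterocyte 0.69. KO lists of changed sign were CBC -0.15, Paneth 0.014, enteroendocrine -0.74, p53 and apoptosis -0.029, Wnt pathway -0.17. KO genes of changed sign were Chga -0.13, Chgb -0.73, Ctnnb1 -0.082, Dclk1 -0.47, Defa24 0.072, Gip -1.50, Lgr5 -0.48, Lyz1 0.080, Mki67 -0.19, Mmp7 0.042. KO against WT, the Paneth list was -0.24 and the enterocyte list was 1.01. With a minimum of 500 genes, in WT the values of these 4 lists beyond their interval were CBC 0.52, Paneth -1.08, goblet -0.97, enterocyte 1.94. WT lists of changed sign were mitotic 0.15, enteroendocrine 0.15, nuclear respiratory chain 0.31, heat shock 0.28, ER folding 0.36. WT genes of changed sign were Chgb 0.36, Mki67 0.51. In KO the values of these 4 lists beyond their interval were CBC 0.55, Paneth -0.85, goblet -0.93, enterocyte 1.54. KO lists of changed sign were S phase 0.091, nuclear respiratory chain 0.15, ER folding 0.25. KO genes of changed sign were Epcam 0.22, Fabp6 0.40, Fcgbp 0.27. KO against WT, the Paneth list was -0.33. With equal weight for each barcode, in WT the values of these 4 lists beyond their interval were CBC -0.41, goblet -0.94, enterocyte 0.29. WT lists of changed sign were Paneth 0.14, tuft -0.55, pan-epithelial -0.47, immediate early -0.20, p53 and apoptosis -0.30, Wnt pathway -0.18. WT genes of changed sign were Ctnnb1 -0.15, Defa24 0.12, Fabp1 -0.66, Fabp2 -0.43, Fabp6 -1.08, Fos -0.11, Jun -0.20, Lyz1 0.12, Mmp7 0.028, Trpm5 -0.23. In KO the values of these 4 lists beyond their interval were goblet -0.51. KO lists of changed sign were CBC -0.15, Paneth 0.49, enteroendocrine -0.72, tuft -0.40, enterocyte -0.22, immediate early -0.14, p53 and apoptosis -0.30, Wnt pathway -0.22. KO genes of changed sign were AY761184 0.29, Chga -0.75, Chgb -0.68, Clps 0.30, Ctnnb1 -0.30, Dclk1 -0.38, Defa24 0.51, Fabp1 -0.13, Fabp2 -0.48, Fos -0.11, Gip -0.28, Jun -0.0016, Lgr5 -0.14, Lyz1 0.45, Mki67 -0.0069, Mmp7 0.28. KO against WT, the Paneth list was -0.097 and the enterocyte list was 0.89. With barcodes of 200 to 1000 non-mitochondrial UMIs, in WT the values of these 4 lists beyond their interval were CBC -0.13, Paneth -0.057, goblet -0.61, enterocyte 0.38. WT lists of changed sign were mitotic 0.0060, tuft -0.91, pan-epithelial -0.11, nuclear lncRNA -0.30, nuclear respiratory chain 0.071, immediate early -1.13, p53 and apoptosis -0.073, Wnt pathway -0.21. WT genes of changed sign were AY036118 -0.079, Clps 0.081, Ctnnb1 -0.15, Ddit3 -0.41, Fabp6 -2.35, Fos -0.81, Hist1h2ap 0.16, Jun -1.30, Malat1 -0.31, Mki67 0.23, Neat1 -0.37, Xist -0.15. In KO the values of these 4 lists beyond their interval were CBC 0.067, goblet -0.043. KO lists of changed sign were mitotic 0.015, Paneth 0.061, tuft -0.23, enterocyte -0.34, nuclear lncRNA -0.56, nuclear respiratory chain 0.065, immediate early -0.76, p53 and apoptosis -0.070, Wnt pathway -0.16. KO genes of changed sign were AY761184 0.055, Anpep -0.33, Apoa1 -0.52, Cck 0.33, Chd3 -0.0099, Chga -0.29, Chgb -0.074, Clps 0.087, Ctnnb1 -0.34, Dclk1 -0.80, Defa24 0.056, Fabp2 -0.0073, Fos -0.77, Jun -0.82, Lgr5 -0.037, Lyz1 0.029, Malat1 -0.58, Myo15b -0.53, Neat1 -0.36, Vil1 -0.046. KO against WT, the Paneth list was -0.095. With a denominator that left out each gene over 1%, in WT the values of these 4 lists beyond their interval were Paneth -0.67, goblet -0.67, enterocyte 1.31. In KO the values of these 4 lists beyond their interval were Paneth -0.16. KO against WT, the Paneth list was -0.43 and the enterocyte list was 0.66. With the barcode with the most Gip left out (an alternative chosen after seeing the data), KO lists of changed sign were enteroendocrine -0.15. KO genes of changed sign were Gip -1.61. In these sentences list and gene values are log2 differences over against at or under the limit. At a median of 723 and 646 non-mitochondrial UMIs per barcode, single-barcode levels of all but the most abundant genes were not readable over the limit.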
